A study of Mus musculus with 9 samples.

Results

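The genes of the WNT ligands were followed on 9 Affymetrix arrays of mouse granulosa cells in culture, the cells that nurse the oocyte inside a follicle. They were 9 genes, Wnt4, Wnt2, Wnt2b, Wnt5a, Wnt5b, Wnt6, Wnt9a, Wnt10b and Wnt11, taken as every probe set whose single symbol in the platform annotation is one of these names. This gave 16 probe sets of the 45037 tested, with 4 for Wnt5a, 2 each for Wnt4, Wnt5b, Wnt6 and Wnt9a, and 1 each for the others. Probe sets of 1 gene are annotated to that gene, may read different transcripts of it, and are not independent.

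Mice aged 20 to 26 days had received equine chorionic gonadotrophin 48 h earlier, and their cells attached overnight in medium with 1% serum. They were then infected in serum-free medium for 24 h with an adenovirus for WNT4 (3 arrays), Cre recombinase (3 arrays) or eGFP, the control (3 arrays), at a multiplicity of infection of about 50. Cre recombines floxed alleles of Ctnnb1, the beta-catenin gene. The mice are labelled only as of various genotypes, so the sources used here do not say which genotype stood behind each group, or whether it was the same in all 3. The labels call the replicates biological without naming animals or cultures, so the spread behind each p-value is that of these samples and may be technical. Groups are named as labelled. The arrays labelled WNT4 were not those with the highest Wnt4 values (given below), so Wnt4 does not check the labels WNT4 and Cre, and whether these labels are right was not tested.

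WNT proteins are secreted ligands that carry a lipid added by the acyltransferase Porcn and need the carrier Wls to leave the cell. They bind Frizzled receptors, either with LRP coreceptors to stabilise beta-catenin, or with receptors such as Ror2 and Ryk to act without it. In the mouse ovary, Wnt4 is known for its part in early female gonad development and is also made by granulosa cells of growing follicles. Wnt5a is the best known ligand of the route without beta-catenin.

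Promoter windows from RefSeq (GRCm38.p6, from 250 bases before to 50 after each annotated start) were found for 8 of the 9 genes, all but Wnt5a, and numbered 11 because Wnt5b and Wnt11 have several starts. Of these, 3 are printed: Wnt4, the ligand placed on the virus; Wnt10b, which with Wnt4 was read well above background; and the Wnt11 window that holds both CTTTGA and ACGTG. Capitals mark matches, on either strand, to CTTTGA (TCF/LEF core, the partners of beta-catenin), ACGTG (hypoxia element core) and AAGGTCA (half-site of NR5A steroidogenic factors).
Wnt4, chr4:137277385-137277684, plus strand: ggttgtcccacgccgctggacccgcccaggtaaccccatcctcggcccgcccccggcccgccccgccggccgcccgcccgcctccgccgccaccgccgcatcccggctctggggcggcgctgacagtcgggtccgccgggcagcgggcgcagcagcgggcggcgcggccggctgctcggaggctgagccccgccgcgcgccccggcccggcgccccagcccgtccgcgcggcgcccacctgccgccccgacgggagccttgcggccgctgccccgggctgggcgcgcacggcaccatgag
Wnt10b, chr15:98778101-98778400, minus strand: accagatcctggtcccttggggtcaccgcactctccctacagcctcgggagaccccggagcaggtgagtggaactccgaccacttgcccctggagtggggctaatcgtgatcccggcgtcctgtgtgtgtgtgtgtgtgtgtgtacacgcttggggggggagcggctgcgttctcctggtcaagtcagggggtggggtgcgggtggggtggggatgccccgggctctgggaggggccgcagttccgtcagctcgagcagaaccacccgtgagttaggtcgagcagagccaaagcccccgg
Wnt11, chr7:98834862-98835161, plus strand: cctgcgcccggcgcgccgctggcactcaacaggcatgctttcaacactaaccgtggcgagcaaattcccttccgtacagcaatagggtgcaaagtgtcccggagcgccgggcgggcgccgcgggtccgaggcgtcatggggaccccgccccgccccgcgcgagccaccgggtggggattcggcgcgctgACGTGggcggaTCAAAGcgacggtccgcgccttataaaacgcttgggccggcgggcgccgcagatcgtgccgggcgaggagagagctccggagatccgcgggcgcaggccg
The windows of Wnt4 and Wnt10b held none of these letters in capitals. The Wnt11 window held 1 ACGTG, starting 61 bases before the start site, and 1 CTTTGA on the minus strand, starting 50 bases before it. Among all 32851 windows in the table, 16.0% held CTTTGA, 19.6% ACGTG and 4.7% AAGGTCA. Among the 11 windows of the ligand genes, 2 held CTTTGA (Wnt11 and Wnt5b), 3 held ACGTG (Wnt11, Wnt5b and Wnt9a) and 0 held AAGGTCA. The Wnt4 window was 84.3% G and C, more than 99.8% of all windows, and the Wnt10b window 66.3%. A match is a run of letters, and binding was not measured.

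RMA gives an expression value on the log2 scale for each probe set, with no call of presence or absence. A background level was therefore read from 80 probe sets of olfactory and vomeronasal receptor genes. The 95th percentile of their group means was 5.43 on the WNT4 arrays, 5.40 on the Cre arrays and 5.46 on the GFP arrays. Probe sets differ in how brightly they read a transcript, so each was set against this level and not against another ligand.

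Among the 9 ligand genes followed, Wnt4, Wnt5a and Wnt10b were those read well above background in granulosa cells under every virus. Both Wnt4 probe sets, 3 of the 4 Wnt5a probe sets and the Wnt10b probe set also lay above the 99th percentile of the receptor probe sets (6.19 on WNT4, 5.90 on Cre and 6.01 on GFP arrays) in all 3 groups. Above the 95th percentile were 9 of 16 probe sets on WNT4 arrays, 10 on Cre arrays and 9 on GFP arrays. The additional ones were close to it. On each array the median of all probe sets (5.439 to 5.537 over the 9 arrays) lay above this percentile of its group. Passing it thus does not set the ligands apart. The upper quartile of all probe sets (7.676 to 8.003 over the 9 arrays) lay above the 99th percentile as well, so passing that level is also common. Wnt6, a ligand of epithelia, had 1 probe set with means of 5.83 ± 0.25 on WNT4, 6.02 ± 0.45 on Cre (past the 99th percentile there) and 5.90 ± 0.23 on GFP arrays (SD, n = 3 each), and its other probe set was below the level in each group. Wnt11, a ligand of cell movements in the embryo, averaged 5.60 ± 0.12, 5.56 ± 0.13 and 5.50 ± 0.23 on WNT4, Cre and GFP arrays. Wnt2, a beta-catenin-activating ligand, averaged 5.42 ± 0.05, 5.53 ± 0.23 and 5.66 ± 0.19, and the brighter probe set of Wnt9a, a ligand of joint formation, 5.73 ± 0.23, 5.46 ± 0.24 and 5.31 ± 0.29, in the same order. These readings lie within the range of the receptor probe sets, the highest of which averaged 7.37 on WNT4, 7.32 on Cre and 7.43 on GFP arrays. So do those of Wnt5a 1448818_at (6.88) and 1437673_at (6.90) on GFP arrays and of 1437673_at (7.16) on Cre arrays, while the other probe sets named as well above background lay above that highest receptor in each group.

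Wnt2b, Wnt5b, the other Wnt9a probe set and 1 Wnt5a probe set (1456976_at) stayed below the background level in every group. Wnt2b, a relative of Wnt2, averaged 4.80 ± 0.24 on WNT4, 5.14 ± 0.08 on Cre and 5.11 ± 0.07 on GFP arrays. The pair of Wnt5b probe sets, for the closest relative of Wnt5a, had group means from 4.88 to 5.25. At this brightness a level under the background cannot be told from none. The dim Wnt5a probe set read between 4.60 and 5.11 while the other Wnt5a probe sets read from 6.49 to 10.77, so the Wnt5a probe sets disagreed on whether the gene was read.

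**Figure D1:**
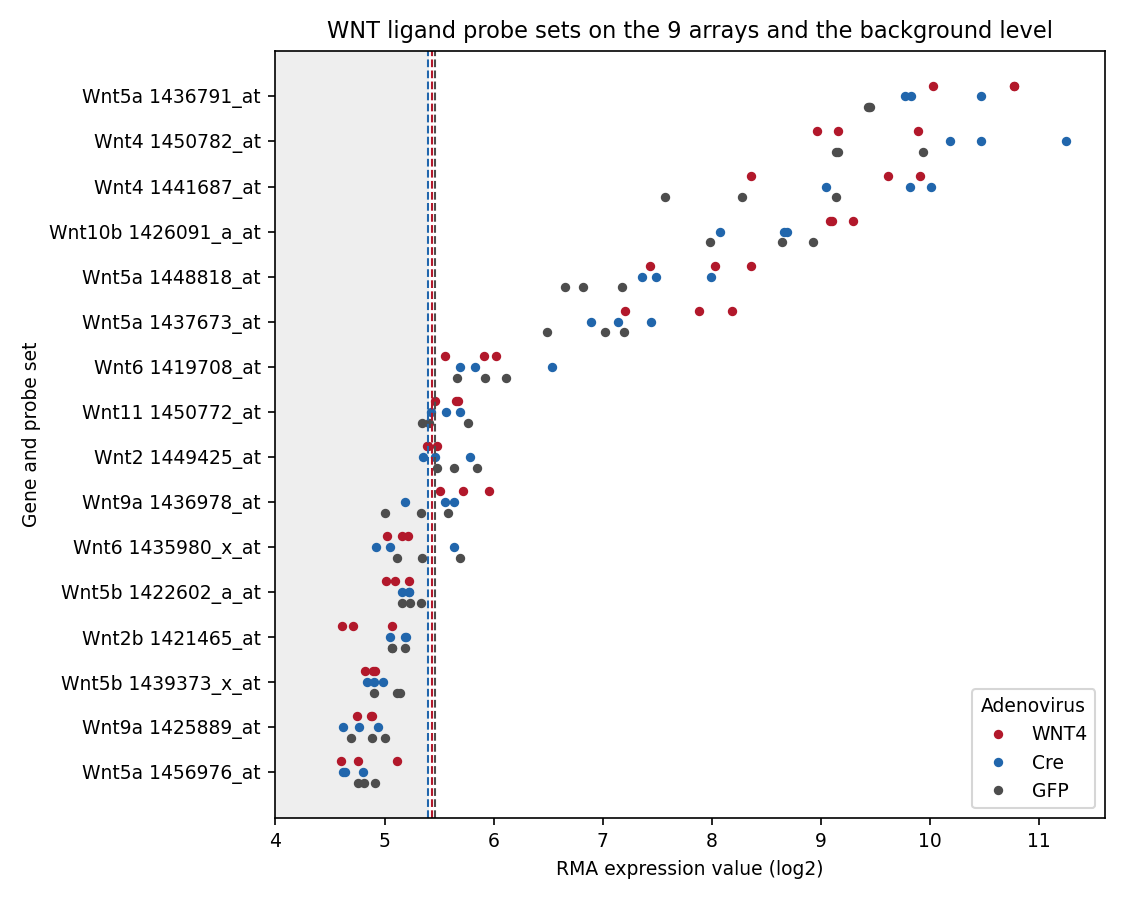
RMA expression values (x axis, log2) of the 16 WNT ligand probe sets (rows) on each array, with points for WNT4, Cre and GFP arrays and dashed lines at the background level of each group. The probe sets of Wnt5a (3 of 4), Wnt4 and Wnt10b lie to the right of the lines on every array, and Wnt2b and Wnt5b lie to the left.

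Of the 10 other WNT ligand genes on the arrays (16 probe sets), Wnt7a and Wnt7b had 1 probe set each above the 99th percentile. The Wnt7a probe set averaged 7.94, 7.97 and 8.08 on WNT4, Cre and GFP arrays, but its other 2 probe sets were below the background level in each group. The Wnt7b probe set averaged 7.29, 7.48 and 7.43, and its other probe set was below the level as well. The probe sets of these genes thus disagreed on whether they were read at all.

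The samples carried the markers of granulosa cells. Of 12 granulosa genes, 11 were above background on GFP arrays, and the mean of the list ran from 9.54 to 10.04 over the 9 arrays. Inha, an inhibin subunit of granulosa cells, read 13.96, 13.42 and 12.88 on WNT4, 13.21, 13.50 and 12.93 on Cre, and 13.28, 13.30 and 13.49 on GFP arrays. Markers of other cells were also read: 10 of 13 theca, stroma and smooth muscle genes, 7 of 9 leukocyte genes, 6 of 10 oocyte genes, 5 of 10 surface epithelium genes, 2 of 8 endothelial genes and 0 of 3 erythrocyte genes lay above background on GFP arrays. The median of all probe sets also lay above this level on each GFP array, so such counts alone say little about a cell type. Cyp17a1, which defines theca cells, averaged 5.50, 5.49 and 5.47 on WNT4, Cre and GFP arrays, close to the background level. On GFP arrays Cyp17a1 narrowly passed that level (5.46) and is among the 10 of 13 counted. Other genes of its list were bright there, with means of 12.16 for Acta2, 10.68 for Ptch1, 10.02 for Tagln and 9.35 for Col3a1. Lum (4.83), Myh11 (4.88) and Gli1 (4.98) lay below the level on GFP arrays. Whether theca cells were present was not tested. In such bulk samples, fewer cells of a type and less RNA per cell cannot be told apart.

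Wnt4 was read highest on the arrays labelled Cre, and the WNT4 arrays had a higher mean than the GFP arrays on 1 of its 2 probe sets, with overlap. On the probe set with the higher mean (1450782_at, annotated to a RefSeq mRNA) Wnt4 read 8.97, 9.89 and 9.16 on the WNT4 arrays, 11.25, 10.47 and 10.18 on the Cre arrays, and 9.93, 9.16 and 9.13 on the GFP arrays. All 3 Cre arrays lay above all other arrays, while the WNT4 and GFP arrays overlapped throughout. On the other (1441687_at, annotated to an expressed sequence tag) Wnt4 read 9.91, 9.62 and 8.36 on WNT4, 10.01, 9.81 and 9.05 on Cre, and 9.13, 7.57 and 8.27 on GFP arrays. There the WNT4 and Cre arrays overlapped, and GFP 1 lay inside both of their ranges. Over the 9 arrays these were among the most variable probe sets, with a larger SD than 98.7% and 99.1% of all.

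For WNT4 against GFP, the first Wnt4 probe set differed by -0.07 ± 0.34 (model SE, n = 3 arrays per group; 95% interval -0.85 to 0.71; limma adjusted p = 0.953). The second differed by 0.97 ± 0.49, with an interval of -0.14 to 2.08 (limma adjusted p = 0.447), and by 0.59 without GFP 2. For Cre against GFP, the differences were 1.23 ± 0.34 (interval 0.45 to 2.01) and 1.30 ± 0.49 (0.19 to 2.41), 2.34-fold and 2.46-fold, both at a limma adjusted p of 0.9999. For WNT4 against Cre, they were -1.30 ± 0.34 (-2.08 to -0.52, limma adjusted p = 0.773) and -0.33 ± 0.49 (-1.44 to 0.78, limma adjusted p = 0.986). No Wnt4 difference therefore passed the test, and with 3 arrays against 3 an exact two-sided permutation test cannot go below p = 0.1, the value reached by the first probe set in both comparisons with Cre. The mean of the 2 probe sets differed by 0.45 for WNT4 against GFP, so the sign rests on which is read. Whether either probe set lies within the transcript that the virus makes is unknown here, and one outside it would not check the virus, so each direction here rests on the labels as given. The 2 probe sets correlated over the 9 arrays at r = 0.605 (exact permutation p = 0.0836; Spearman's rho 0.45, exact permutation p = 0.23), and at 0.562 after group means were removed. Without the 2 arrays farthest from the median (Cre 1 and WNT4 1) r was 0.881.

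**Figure D2:**
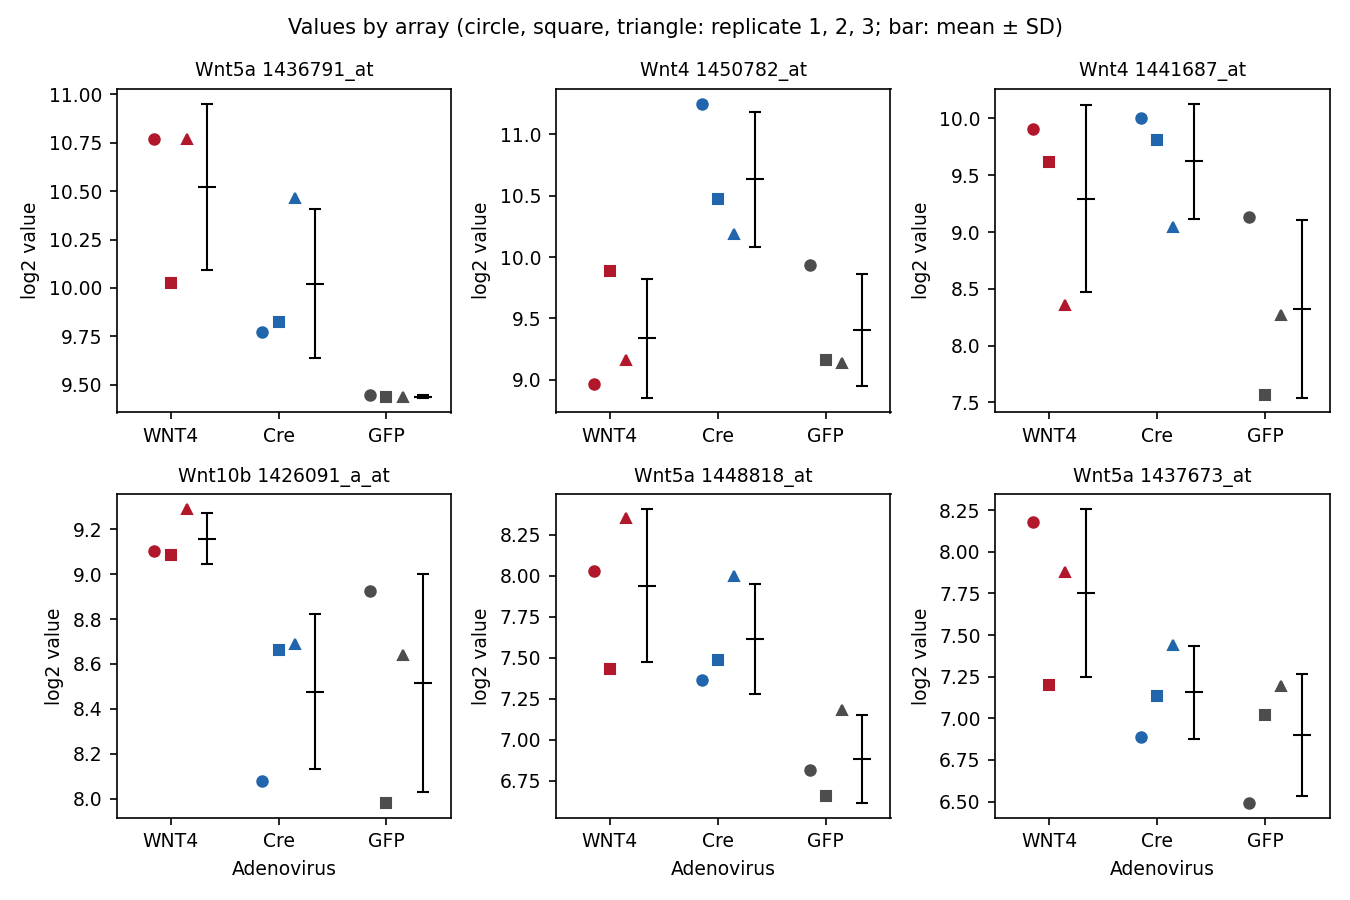
Log2 values (y axis) by array for the 6 probe sets above the stricter background level, with WNT4, Cre and GFP arrays from left to right; symbols mark replicates 1 to 3 and bars the mean ± SD. Wnt4 1450782_at is highest on the 3 Cre arrays, Wnt10b on the 3 WNT4 arrays, and the GFP arrays are lowest for Wnt5a 1436791_at and 1448818_at.

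Wnt5a was read highest on average on WNT4 arrays and lowest on GFP arrays by 3 of its 4 probe sets. On its brightest probe set (1436791_at) Wnt5a read 10.77, 10.03 and 10.77 on WNT4, 9.77, 9.83 and 10.47 on Cre, and 9.45, 9.43 and 9.44 on GFP arrays. Every WNT4 and Cre array lay above every GFP array, and the GFP arrays agreed within 0.0066 (SD). On 1448818_at Wnt5a read 8.03, 7.43 and 8.35 on WNT4, 7.36, 7.49 and 8.00 on Cre, and 6.81, 6.65 and 7.18 on GFP arrays, with the same separation from GFP. On 1437673_at it read 8.18, 7.20 and 7.88 on WNT4, 6.89, 7.14 and 7.44 on Cre, and 6.49, 7.02 and 7.19 on GFP arrays. On this one WNT4 2 (7.1988) barely exceeded GFP 3 (7.1934), and the Cre and GFP arrays overlapped.

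For WNT4 against GFP, the Wnt5a differences were 1.08 ± 0.24 (2.12-fold, interval 0.55 to 1.62, limma adjusted p = 0.174), 1.06 ± 0.26 (2.08-fold, limma adjusted p = 0.19) and 0.85 ± 0.27 (1.80-fold, limma adjusted p = 0.269) in the order above. None passed over all 45037 probe sets. Without WNT4 2, the array with the lowest Wnt5a among the WNT4 arrays, the first 2 passed (1.33 and 1.31, limma adjusted p = 0.0382 and 0.0442), in a fit that called 748 probe sets in all. For Cre against GFP, the differences were 0.58 ± 0.24, 0.73 ± 0.26 and 0.25 ± 0.27, none past the test (limma adjusted p = 0.9999 each). Without 1 array these ranged from 0.36 to 0.71, from 0.54 to 0.88 and from 0.05 to 0.40, lowest without Cre 3, Cre 3 and GFP 1. For WNT4 against Cre, they were 0.50 ± 0.24, 0.32 ± 0.26 and 0.60 ± 0.27 (limma adjusted p = 0.82, 0.943 and 0.816), and the WNT4 and Cre arrays overlapped on each. The labels name no pairs, and whether arrays of the same number were paired is unknown. Between same-numbered arrays, as a description, WNT4 minus Cre was 1.00, 0.20 and 0.30 on 1436791_at, 0.67, -0.05 and 0.36 on 1448818_at, and 1.29, 0.06 and 0.44 on 1437673_at. It was thus above 0 for 3 of 3, 2 of 3 and 3 of 3 numbers. For Wnt4 it was below 0 for 3 of 3 numbers on both probe sets, at -2.28, -0.58 and -1.03 on 1450782_at and -0.10, -0.20 and -0.69 on 1441687_at. With the replicate number as a block, no ligand probe set was called. That block also ties the GFP arrays to those of the same number. A fit with only the WNT4 and Cre arrays paired was not run. The fourth, dim probe set differed by -0.00 ± 0.13 for WNT4 against GFP.

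The 3 brighter Wnt5a probe sets moved together over the arrays. Their pairwise r was 0.948, 0.88 and 0.831 over 9 arrays (exact permutation p = 0.0002, 0.001 and 0.0059; adjusted over 7 relations, 0.0013, 0.0035 and 0.0137), with Spearman's rho of 0.95, 0.817 and 0.833 (adjusted 0.0025, 0.0188 and 0.0188). After group means were removed, r was 0.862, 0.77 and 0.737, and without the 2 farthest arrays 0.916, 0.661 and 0.873. Permuting all 9 arrays ignores the groups. Wnt4 and Wnt5a, each on its probe set of highest mean, had r = -0.217 over all arrays (exact permutation p = 0.578; rho -0.067, exact permutation p = 0.88; r = 0.102 without Cre 1 and WNT4 1). After group means were removed their r was -0.725, a value with no test of its own. Within the WNT4 and Cre groups the arrays higher for Wnt4 tended to be lower for Wnt5a. The GFP arrays hardly differed in Wnt5a (SD 0.0066), and GFP 1 was the highest of them for both genes, so they added little to this r. The other Wnt4 probe set was not set against Wnt5a. Wnt5a and Wnt10b had r = 0.623 (exact permutation p = 0.0778) and rho 0.817 (exact permutation p = 0.0108, adjusted 0.0188). Their r was 0.2955 without WNT4 1 and WNT4 3 and 0.312 after group means were removed. The linear relation thus depended on those 2 arrays and on differences between groups, and rho was not recomputed in either way.

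Genes of other programmes were high on some of the same arrays. Relative to the GFP mean, the mean of the 3 Wnt5a probe sets stood at 1.25, 0.48 and 1.26 on WNT4 1, 2 and 3, at 0.27, 0.41 and 0.89 on Cre 1, 2 and 3, and at -0.16, -0.04 and 0.20 on GFP 1, 2 and 3. A list of 17 hypoxia genes stood at 0.64, 0.07 and 3.17 on the WNT4 arrays, -0.15, 0.07 and 2.87 on the Cre arrays, and -0.07, -0.10 and 0.17 on the GFP arrays. Its mean was thus high on WNT4 3 and on Cre 3, the highest Cre array for Wnt5a, and raised less on WNT4 1. On WNT4 1 only part of the list was raised. Vegfa (9.17) and Adm (10.37) lay above all GFP arrays there, while Egln3 (5.19) and Slc2a1 (8.73) lay within the GFP range. On WNT4 3 these 4 genes read 10.65, 12.29, 11.46 and 12.51. Car9 was not raised even on WNT4 3 (5.49, and 5.75 to 5.92 on GFP arrays). Without WNT4 3 and Cre 3, but with WNT4 1 kept, the 3 Wnt5a differences for WNT4 against GFP were 0.96, 0.85 and 0.79. For Cre against GFP they were 0.36, 0.54 and 0.11, each in the order above, and none in either comparison passed the test. The 13 theca, stroma and smooth muscle genes stood at 0.51, -0.34 and 0.25 on WNT4, 0.17, -0.26 and 0.14 on Cre, and -0.35, 0.21 and 0.15 on GFP arrays. The 10 oocyte genes stood at 1.27, 0.10 and -0.03 on WNT4, 0.76, 0.48 and -0.15 on Cre, and -0.19, 0.49 and -0.30 on GFP arrays, high on WNT4 1. On WNT4 1, 7 of the 13 theca, stroma and smooth muscle genes were at their highest of the 9 arrays and 3 at their lowest. Dcn (9.50), Lum (7.33) and Pdgfra (8.16) were among the highest, with at most 7.10, 4.91 and 6.64 on any other array. The smooth muscle genes Acta2 (10.81) and Tagln (8.53) were among the lowest. Of the oocyte genes, 8 of 10 were at their highest there. The part of these genes in the Wnt5a values was not tested.

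**Figure D3:**
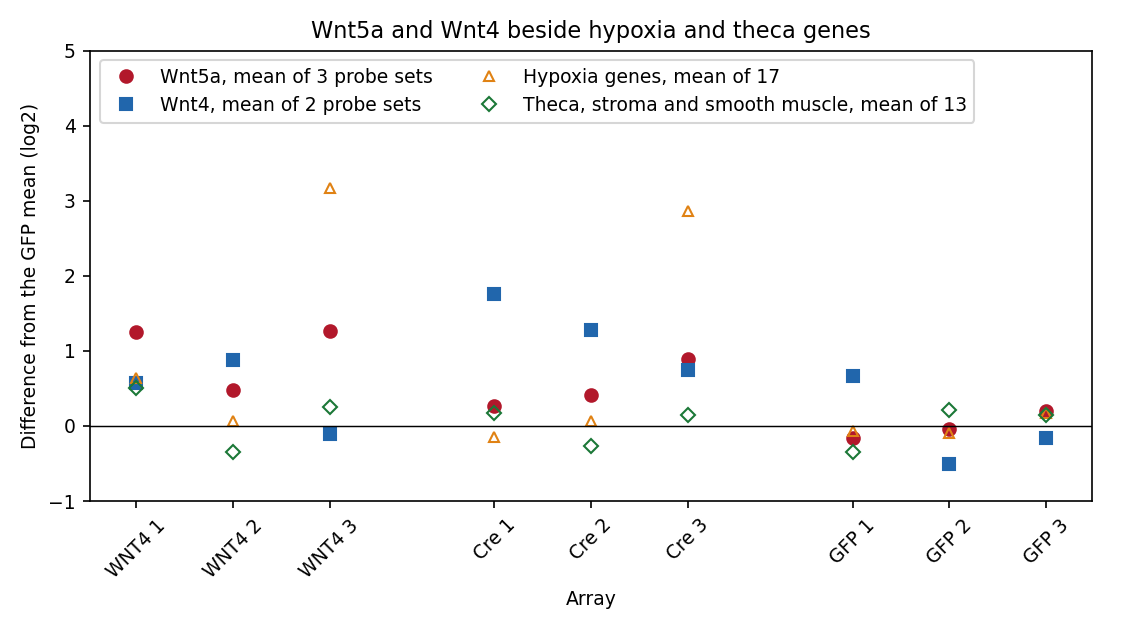
Difference from the GFP mean (y axis, log2) on each array (x axis) for Wnt5a (mean of 3 probe sets), Wnt4 (mean of 2), 17 hypoxia genes and 13 theca, stroma and smooth muscle genes. Wnt5a is above 0 on all WNT4 and Cre arrays, Wnt4 is highest on Cre 1, and the hypoxia genes stand near 3 on WNT4 3 and Cre 3 alone.

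Wnt10b, a beta-catenin-activating ligand known to restrain fat cell formation, was read highest on the WNT4 arrays. It read 9.10, 9.08 and 9.29 on WNT4, 8.08, 8.66 and 8.69 on Cre, and 8.93, 7.98 and 8.64 on GFP arrays. All 3 WNT4 arrays lay above all other arrays, and the Cre and GFP arrays overlapped. The differences were 0.64 ± 0.25 for WNT4 against GFP (interval 0.08 to 1.20, limma adjusted p = 0.326), -0.04 ± 0.25 for Cre against GFP (interval -0.60 to 0.52, limma adjusted p = 0.9999) and 0.68 ± 0.25 for WNT4 against Cre (interval 0.12 to 1.24, limma adjusted p = 0.773). None passed the test. Without GFP 2, the lowest GFP array, the WNT4 difference from GFP was 0.38. This value rests on 1 probe set.

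Among the dimmer ligands, Wnt2b had the only intervals that left out 0. It read 4.61, 4.71 and 5.07 on WNT4, 5.19, 5.19 and 5.05 on Cre, and 5.19, 5.07 and 5.07 on GFP arrays, all below the background level. It differed by -0.31 ± 0.12 for WNT4 against GFP (limma adjusted p = 0.342) and by -0.35 ± 0.12 for WNT4 against Cre (limma adjusted p = 0.773), and WNT4 3 lay among the arrays of the other groups. The brighter Wnt9a probe set differed by 0.42 ± 0.19 for WNT4 against GFP (limma adjusted p = 0.386) and by 0.27 without GFP 2. Wnt11 differed by 0.09 ± 0.13, 0.06 ± 0.13 and 0.04 ± 0.13 for WNT4 against GFP, Cre against GFP and WNT4 against Cre. It read 5.66 on WNT4 3 and 5.69 on Cre 3, the arrays with high hypoxia genes, and 5.76 on GFP 1. Wnt2, Wnt5b, Wnt6, the dimmer Wnt9a and the dim Wnt5a probe sets differed by at most 0.25 in size in any comparison, with intervals that included 0.

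**Figure D4:**
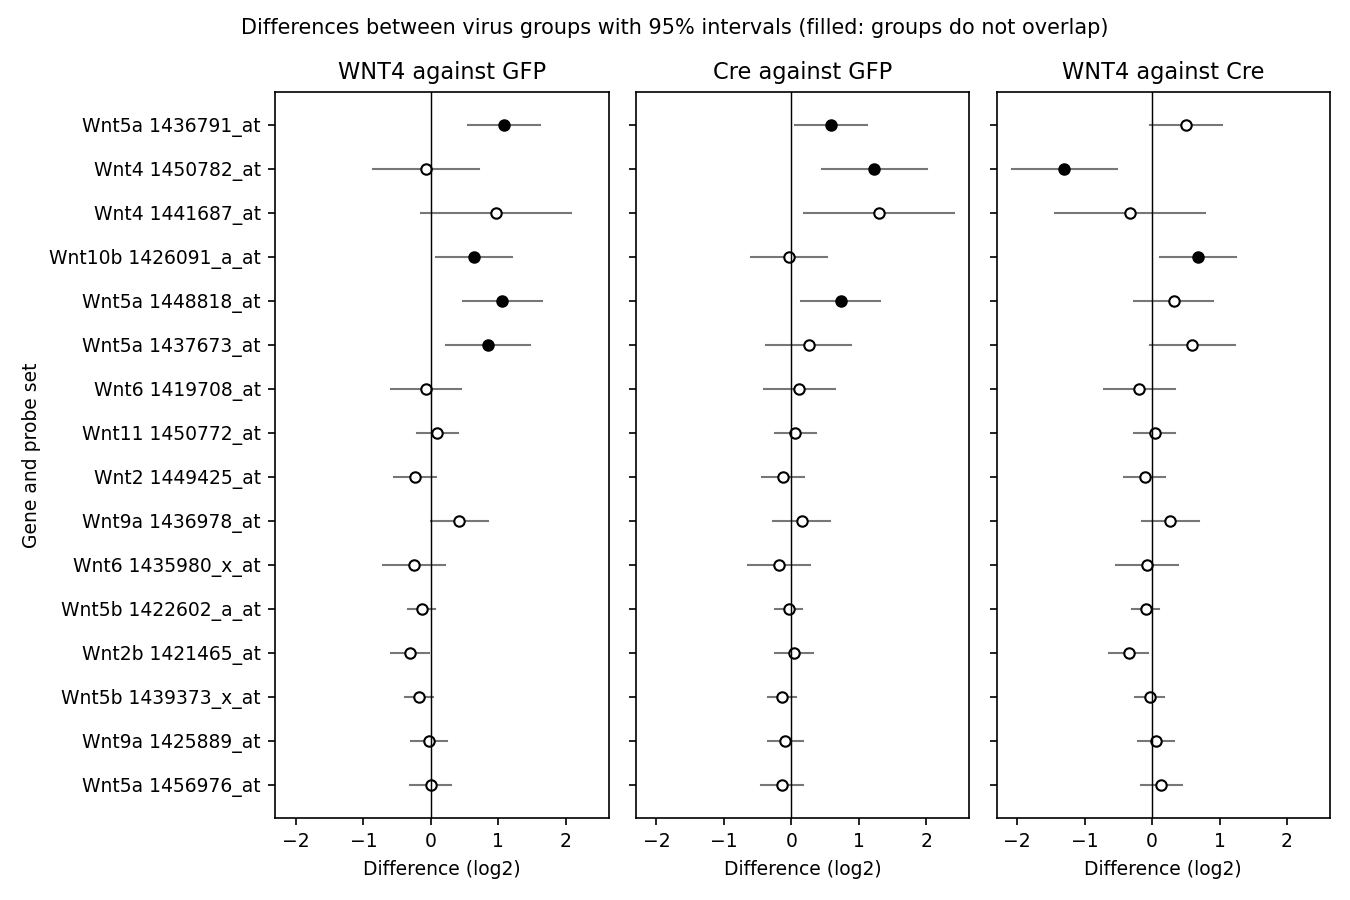
Log2 difference (x axis, point) with its 95% model interval (line) for each of the 16 probe sets (rows) in WNT4 against GFP, Cre against GFP and WNT4 against Cre; filled points mark groups that do not overlap. Filled points are 3 Wnt5a probe sets and Wnt10b in the first panel, 2 Wnt5a probe sets and Wnt4 1450782_at in the second, and Wnt10b and Wnt4 1450782_at in the third.

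For WNT4 against GFP, 0 of the 16 ligand probe sets were called at an adjusted p under 0.05, where 7 of 45037 (0.0155%) were called over all. At an unadjusted p under 0.05 there were 5 of 16, the 3 brighter Wnt5a, Wnt10b and Wnt2b, against 13.0% of all probe sets. The groups did not overlap at 4 of 16, all higher on WNT4 arrays, against 14.8% of all (9.28% higher, 5.49% lower). For Cre against GFP, limma called 0 of 16 and 0 of 45037 (0%). At an unadjusted p under 0.05 there were 4 of 16, both Wnt4 and 2 Wnt5a probe sets, against 2.23% of all, and the groups did not overlap at 3 of 16, all higher on Cre arrays, against 6.02% (2.98% higher, 3.04% lower). For WNT4 against Cre, limma again called 0 of 16 and 0 of 45037 (0%). There, 3 of 16 had an unadjusted p under 0.05 (6.23% of all) and 2 of 16 did not overlap (8.23% of all, 5.38% higher and 2.85% lower), Wnt10b higher and Wnt4 1450782_at lower on WNT4 arrays. The 3 at an unadjusted p under 0.05 were Wnt10b, Wnt2b and Wnt4 1450782_at. Probe sets of 1 gene count more than once. The median difference of the 16 was -0.016 for WNT4 against GFP, 0.046 for Cre against GFP and 7.87e-05 for WNT4 against Cre, beside -0.0016, -0.016 and 0.023 over all probe sets. Both comparisons with GFP share the GFP arrays, and both comparisons with Cre share the Cre arrays.

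Genes that make, receive or block WNT signals were read from 1 probe set each, and in no comparison was any of them called by limma (0 genes). Of 10 genes of ligand modification and secretion, 3 had an unadjusted p under 0.05 for WNT4 against GFP (13.0% of all probe sets did), Snx3 (0.43 ± 0.13) and Vps35 (0.36 ± 0.14), which recycle Wls, and Tmed5, a cargo receptor (0.77 ± 0.32). For WNT4 against Cre there were also 3 (6.23% of all), Vps26a (0.46 ± 0.16), Snx3 (0.36 ± 0.13) and Tmed5 (0.75 ± 0.32). Tmed5 read 11.65, 10.05 and 10.73 on WNT4 arrays and 10.03, 9.95 and 10.15 on GFP arrays, so WNT4 2 lay within the GFP range. Porcn averaged 7.05, 7.09 and 7.15 on WNT4, Cre and GFP arrays, and Wls 9.73, 9.93 and 9.89. Their differences were at most 0.20 in size in any comparison, with an SE of 0.20 for Porcn and 0.16 for Wls. The median of this list was 0.20 for WNT4 against GFP, -0.02 for Cre against GFP and 0.15 for WNT4 against Cre.

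Of 25 receptors and coreceptors, 17 had a mean of at least 6, and 5 of 25 had an unadjusted p under 0.05 for WNT4 against GFP (13.0% of all) and 2 of 25 for Cre against GFP (2.23% of all). Fzd1, a Frizzled receptor, read 8.48, 8.04 and 8.84 on WNT4, 9.35, 8.24 and 8.99 on Cre, and 7.52, 7.34 and 7.75 on GFP arrays, with all WNT4 and Cre arrays above all GFP arrays (0.92 ± 0.29 and 1.32 ± 0.29 against GFP). Lgr6, a receptor of R-spondins, differed by -1.96 ± 0.67 for WNT4 against GFP and Ryk by 0.36 ± 0.12 for WNT4 against Cre. Lgr6 read 7.78, 9.43 and 7.06 on WNT4, 9.14, 10.18 and 7.93 on Cre, and 10.24, 9.51 and 10.38 on GFP arrays. It was thus lowest on WNT4 3 and Cre 3 in their groups, and WNT4 2 was close to GFP 2. The list medians were 0.03, 0.02 and -0.06 for WNT4 against GFP, Cre against GFP and WNT4 against Cre. Of 12 secreted antagonists, Apcdd1 differed by 1.08 ± 0.24 for WNT4 against GFP and 0.65 ± 0.24 for Cre against GFP. Of 14 measured genes of beta-catenin feedback, Axin2, which limits beta-catenin, read 8.14, 7.39 and 7.87 on WNT4, 9.27, 7.94 and 8.47 on Cre, and 7.42, 6.78 and 7.24 on GFP arrays. All Cre arrays lay above all GFP arrays (1.41 ± 0.33), as they did at 2.98% of all probe sets. Axin2 differed by 0.65 ± 0.33 for WNT4 against GFP and by -0.76 ± 0.33 for WNT4 against Cre, with overlap in both. Bambi, a decoy receptor of the TGF-beta family, read 8.62, 7.59 and 7.71 on WNT4, 8.53, 7.14 and 8.21 on Cre, and 6.46, 6.60 and 6.97 on GFP arrays. All WNT4 and Cre arrays lay above all GFP arrays (1.30 ± 0.38 and 1.28 ± 0.38 against GFP), and WNT4 against Cre differed by 0.02 ± 0.38. In this list 1 of 14 genes had an unadjusted p under 0.05 for WNT4 against GFP (13.0% of all) and 3 of 14 for Cre against GFP (2.23% of all). For WNT4 against Cre it was 1 of 14, Axin2 (6.23% of all). The medians of the feedback list were 0.05, 0.13 and -0.06 in the same order of comparisons. No gene of the 10 other ligands had an unadjusted p under 0.05 in any comparison.

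The genes with the pattern most like Wnt4 (1450782_at) were ranked by Pearson correlation over the 9 arrays, among 10556 genes with a mean of at least 6. The first 5 were Atxn7l2 (r = 0.902), Akr1c18 (0.834), 4930524J08Rik (0.816), Glt8d2 (0.806) and Cngb1 (0.789). Akr1c18, an enzyme that inactivates progesterone, read 8.82, 10.07 and 8.90 on WNT4, 10.39, 10.12 and 9.15 on Cre, and 9.64, 8.04 and 8.89 on GFP arrays. Of the rest, Atxn7l2 spanned 7.04 to 7.37 over all arrays, a far smaller range than that of Wnt4. The ranking is a description over 9 arrays and carries no test.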

How the data were processed

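The authors deposited log2 values that RMA had produced, a method the submitters' processing notes name without a version (the log2 scale was read from the values). RMA subtracts background, makes the arrays' distributions alike and merges each set's probes into a single value. Of 45101 probe sets, 64 controls were left out. The number of arrays limits the precision. Names came from the platform annotation, updated by Entrez ID (34741 of 34945 single symbols matched a RefSeq table, GRCm38.p6).

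Linear models over all 9 arrays were fitted with limma 3.58.1 in R 4.3.3 (lmFit, eBayes, no covariate, 6 residual and 2.8 prior degrees of freedom, two-sided), adjusted by Benjamini-Hochberg over 45037 probe sets, and tested on simulated data. Correlations used scipy 1.17.1. Genes named are all members, up to 3 per list and comparison with the lowest p, and the 5 most like Wnt4. Wnt7a, Wnt7b, Acta2, Tagln, Dcn, Lum, Pdgfra, Ptch1, Col3a1, Gli1, Myh11, Inha, Cyp17a1, Porcn, Wls, Egln3, Slc2a1 and Car9 were chosen after their values were seen. Members and lists were chosen with earlier results of these data known. Alternatives were other scalings, a brightness filter, the replicate number as a block, other variance settings and leaving out arrays.

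Deviations of same-numbered arrays from their group means correlated at 0.209, 0.237 and 0.768 between WNT4 and Cre. They correlated at -0.082, 0.012 and 0.347 between WNT4 and GFP, and at -0.038, -0.311 and 0.305 between Cre and GFP. The 0.768 belongs to WNT4 3 and Cre 3, the arrays with the highest hypoxia genes, and differently numbered arrays were not compared. Relative to the GFP mean, 9 leukocyte genes stood at -0.40, -0.02 and 0.43 on WNT4, -0.34, -0.03 and 0.46 on Cre, and -0.09, -0.29 and 0.38 on GFP arrays. In each group this mean was highest on the array numbered 3, and the part of these genes in the correlations was not tested. The labels name no pairs, so whether same-numbered arrays were paired is unknown.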

Additional observations from a re-analysis of the deposited data

How the results depend on the processing

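Across 48 differences and 885 values recomputed under other settings, 840 kept their sign and were not called, 2 were called, and 43 changed sign, in 18 differences, with a size of at most 0.45 afterwards. The Wnt4 difference of WNT4 from GFP (1450782_at) was 7.93e-05 with array weights, 0.45 as the mean of both probe sets, 0.0189 without both Cre 3 and WNT4 3, and between -0.34 and 0.19 without 1 array. The ligand probe sets called for WNT4 against GFP numbered 0 to 2 without 1 array, the 2 being Wnt5a without WNT4 2. Over all probe sets, the 7 calls became 0 on the compared arrays alone, 3 after quantile normalization, 17 with centring on the 75th percentile, 15 at a mean of at least 6, 1 with an intensity trend, 0 without the arrays numbered 3, 0 without both Cre 3 and WNT4 3 (these 2 settings were chosen after earlier results were known), and 0 to 748 without 1 array; for Cre against GFP, the last range was 0 to 1. With the replicate block, the calls over all probe sets were 10, 0 and 0 and no ligand call changed. With centring on the 75th percentile, the median difference of all probe sets was -0.15 for WNT4 against GFP. At the 99th percentile, 6, 7 and 6 ligand probe sets were above background on WNT4, Cre and GFP arrays.

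The sign changes were otherwise small. For WNT4 against GFP, Wnt9a 1425889_at was 0.0257 after quantile normalization and 0.0138 after centring on the median, Wnt5a 1456976_at was 0.0436, 0.0413 and, with array weights, 0.0116, and Wnt11 was -0.0574 with centring on the 75th percentile. With that centring, Wnt2b was -0.0148 for Cre against GFP, and Wnt9a 1425889_at and Wnt11 were -0.0451 and -0.0669 for WNT4 against Cre. For Cre against GFP, Wnt10b was 0.1013 with array weights, and Wnt11 was -0.0568 without the arrays numbered 3 and -0.0082 without both Cre 3 and WNT4 3, a setting under which Wnt6 1419708_at was 0.0694 for WNT4 against GFP. Without 1 array, the ranges that crossed 0 were as follows. For WNT4 against GFP, they were -0.1883 to 0.0694 for Wnt6 1419708_at, -0.1145 to 0.0433 for Wnt9a 1425889_at and -0.1472 to 0.1095 for Wnt5a 1456976_at. For Cre against GFP, they were -0.14 to 0.2824 for Wnt6 1419708_at, -0.0851 to 0.0032 for Wnt5b 1422602_a_at, -0.306 to 0.1675 for Wnt10b 1426091_a_at and -0.023 to 0.1876 for Wnt11 1450772_at. For WNT4 against Cre, they were -0.3522 to 0.0702 for Wnt6 1419708_at, -0.0194 to 0.1419 for Wnt9a 1425889_at, -0.2108 to 0.1452 for Wnt6 1435980_x_at, -0.0715 to 0.000803 for Wnt5b 1439373_x_at, -0.6338 to 0.138 for Wnt4 1441687_at, -0.1976 to 0.0184 for Wnt2 1449425_at, -0.0297 to 0.1044 for Wnt11 1450772_at and -0.0082 to 0.2485 for Wnt5a 1456976_at. The causes were not tested.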

Other observations

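The genes most like Wnt5a (1436791_at) over the 9 arrays were looked up after its values were seen, among the same 10556 genes. The first 5 by Pearson correlation were Eif1b (r = 0.988), Mcl1 (0.985), Mocos (0.985), Lonp1 (0.982) and Nufip1 (0.981). Lonp1, a protease of mitochondria, read 12.26, 11.28 and 12.55 on WNT4 arrays, 10.92, 10.84 and 11.99 on Cre arrays, and 10.66, 10.52 and 10.73 on GFP arrays. Mcl1, which protects cells from apoptosis, read 12.19, 11.80 and 12.17 on WNT4, 11.78, 11.80 and 12.02 on Cre, and 11.64, 11.69 and 11.58 on GFP arrays. Both were thus highest on WNT4 1 and WNT4 3, as Wnt5a was, and every WNT4 and Cre array lay above every GFP array for both. These are the top of a ranking and carry no test.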
